A study of Mus musculus with 4 samples.

Results

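The 10 genes described here encode the surface antigens that define the LSK gate of mouse bone marrow and divide it into stem cells, multipotent progenitors and lymphoid-primed progenitors: Kit, Ly6a, Flt3, Slamf1, Cd48, Cd34, Procr, Il7r, Cd27 and Esam. They were taken by symbol from a count table of 24421 genes. All 10 were found, and all 10 passed the filter on low counts that left 14140 genes to be tested. RNA was sequenced from lineage-negative, Kit-positive, Sca1-positive cells sorted from the bone marrow of Zfp521-/- mice (KO, 2 libraries) and of control littermates labelled wild type (WT, 2 libraries). The labels state neither the age, sex and strain of the animals nor how the knockout allele was made, and the series text speaks of independent RNA samples from pools of hematopoietic stem cells, although the sort defines the wider LSK fraction. They do not say whether the pools came from separate animals, so p-values measure the spread between these libraries, which may be in part technical.

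LSK cells are found by flow cytometry: cells that lack antigens of mature blood lineages and carry both Kit, the receptor for stem cell factor, and Sca-1, the product of Ly6a. Within this gate, long-term stem cells carry the SLAM receptor CD150 (Slamf1), EPCR (Procr) and ESAM, and lack CD48, CD34 and FLT3. Multipotent progenitors gain CD34, CD48 and CD27, and the most lymphoid of them gain FLT3 and, later, the interleukin 7 receptor. These antigens are proteins scored cell by cell, whereas the values here are RNA levels over all sorted cells.

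Library totals lay between 17787425 and 29863594 counts, and each of the 10 genes had between 273 and 17588 counts in every library. A floor of 3 counts corresponded to at most 0.152 CPM, the counts scaled to a common library total after TMM normalisation. WT replicate 2 stood apart from the other libraries, with 606 counts of Xist against 160613 to 230977 and 5606 counts over 4 Y-linked genes against 9 to 14, so the WT group mixed a male with a female pattern and both KO libraries had the female one. Without WT replicate 2 the comparison is therefore between libraries of the female pattern. The WT libraries, with different sex patterns, did not come from the same animals, so the WT spread includes differences between animals. Whether the KO libraries came from separate animals stays unknown. Zfp521, the targeted gene, was at 56.1 and 57.5 CPM in WT and at 13.9 and 10.9 CPM in KO (edgeR log2 fold change -2.19, SE 0.23, adjusted p = 0.000491).

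For these genes, setting KO beside WT asks whether the antigens that mark each layer of the LSK fraction differ in RNA level when Zfp521 is lost. Cd34 and Il7r were called lower in KO, by 0.61 and 1.06 on the log2 scale (edgeR adjusted p = 0.0408 and 0.0424). With upper quartile factors neither was called, and without WT replicate 2 the log2 fold change of Il7r was -0.62. Slamf1, Procr, Esam and Flt3 had positive fold changes that were not called and groups free of overlap, and so had Cd48 and Cd27 with negative ones. Kit and Ly6a, which define the gate, overlapped. In bulk RNA, fewer cells of a type and less RNA per cell cannot be told apart.

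Of the 10 genes, 2 passed an adjusted p of 0.05 (edgeR quasi-likelihood test, Benjamini-Hochberg over all genes tested), both lower in KO, against 6.78% of all genes tested in either direction and 3.01% in the lower one. No gene of the 10 was called higher. At an unadjusted p under 0.05 the number was 5, of which Flt3 was higher, against 24.5% of all genes tested, and DESeq2 called the same 2 genes, Cd34 and Il7r. The 2 WT and 2 KO libraries did not overlap for 8 of the 10 genes, 4 higher and 4 lower in KO, whereas 56.5% of all genes tested had groups that did not overlap (28.8% higher and 27.6% lower). For Slamf1, Procr and Esam counting error alone reached across the gap between the groups. Among the 8180 genes at or above the mean level of the lowest of the 10, 8.25% were called and 58.9% did not overlap. The median log2 fold change was 0.15 over the 10 genes and 0.02 over all genes tested. The number of calls among the 10 depended on single libraries, and so did the number over all genes tested. Leaving 1 library out leaves 1 in its group, so nothing about the 10 genes is read from those shifts. With upper quartile factors the number among the 10 was 0 (5 at an unadjusted p under 0.05). There 953 of all genes tested were called, against 958 with TMM factors, and 69.7% of calls were higher in KO against 55.6%.

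**Figure D1:**
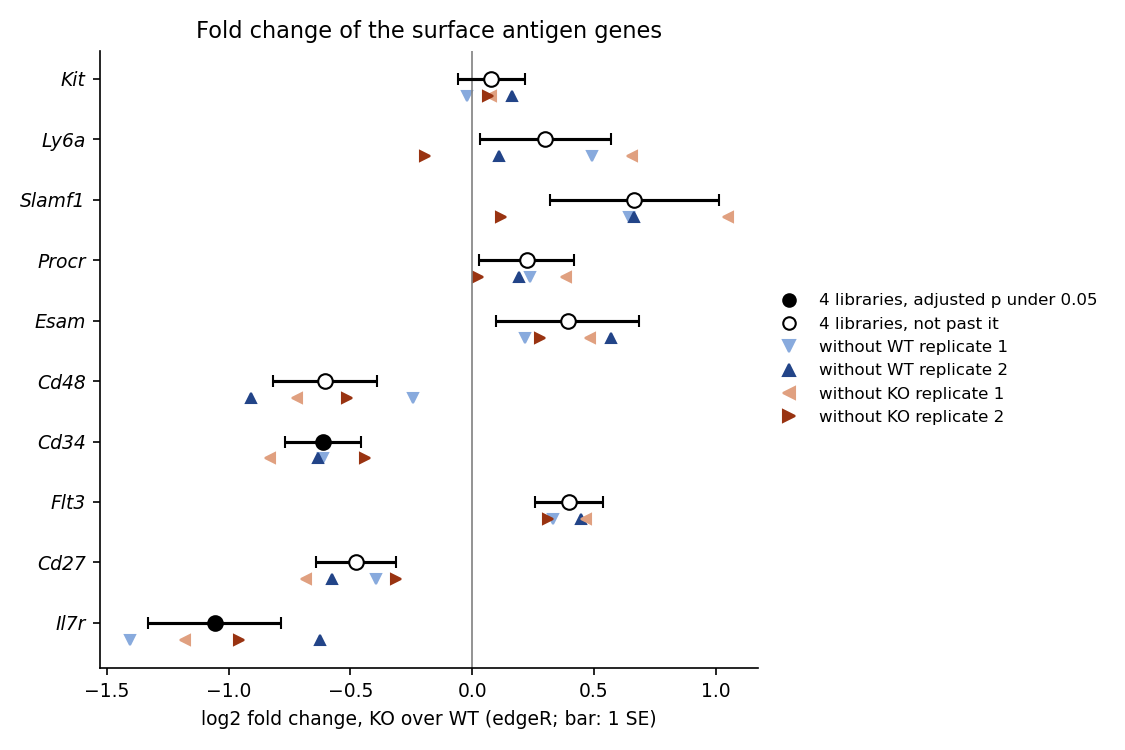
Log2 fold change of KO over WT for the 10 antigen genes (edgeR, all 4 libraries, bars 1 SE, filled where the adjusted p was under 0.05), with the value when each library is left out drawn as a triangle below. Cd34 at -0.61 and Il7r at -1.06 are filled, and the triangles of Kit and Ly6a lie on both sides of 0.

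Il7r, the receptor chain that binds interleukin 7 and that early lymphoid progenitors need, had the largest fold change of the 10. Its level was 34.9 and 60.5 CPM in WT replicates 1 and 2 and 24.6 and 21.1 CPM in KO replicates 1 and 2. Both KO libraries lay below both WT libraries, and WT replicate 1 lay nearer to KO replicate 1 than to WT replicate 2. The means were 47.7 ± 18.1 CPM in WT and 22.9 ± 2.48 CPM in KO (SD, n = 2 each), which edgeR's quasi-likelihood fit gave as a log2 fold change of -1.06 with an SE of 0.27 (adjusted p = 0.0424). The call rested on WT replicate 2: without it the log2 fold change was -0.62 and the adjusted p was 0.361, and with upper quartile factors the adjusted p was 0.0558. Il7r lies on the minus strand at chr15:9505788-9530176 (mm10, GENCODE) and no annotated gene overlaps it.

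Cd34, a sialomucin found on most multipotent progenitors and absent from the most dormant stem cells of adult mice, fell as well. It was at 499 and 495 CPM in the WT libraries, which were nearly equal, and at 369 and 282 CPM in KO replicates 1 and 2. The 2 KO libraries were both lower than WT and differed from each other by far more than the WT pair did. In edgeR's fit the log2 fold change was -0.61 with an SE of 0.16 (adjusted p = 0.0408), a level 1.53-fold lower in KO. Leaving out WT replicate 1 gave -0.61 (adjusted p = 0.231), leaving out WT replicate 2 gave -0.63 (0.174) and leaving out KO replicate 2 gave -0.44 (0.0933), so each of these ended the call. With upper quartile factors the adjusted p was 0.0648. Cd34 lies at chr1:194938819-194961279 on the plus strand, and an antisense gene, Gm16897, overlaps it, so without a stated strand setting the reads of both cannot be separated.

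The promoter stretches of the called genes Il7r and Cd34 are shown with those of the SLAM family genes Slamf1 and Cd48, whose values are described next. Each runs 5′ to 3′ on the gene's strand from 210 to 11 bases before the RefSeq start (GRCm38.p6), at chr15:9529887-9530086 (minus strand), chr1:194938611-194938810, chr1:171766922-171767121 and chr1:171681782-171681981 (plus strand). For Il7r the RefSeq start lies inside the GENCODE gene span, whose outer end is set by a noncoding transcript that starts at position 9530176, while the GENCODE coding transcripts start at 9529835 and 9529828. Of the Il7r stretch, 46 bases fall in the first exon of that noncoding transcript.
Il7r: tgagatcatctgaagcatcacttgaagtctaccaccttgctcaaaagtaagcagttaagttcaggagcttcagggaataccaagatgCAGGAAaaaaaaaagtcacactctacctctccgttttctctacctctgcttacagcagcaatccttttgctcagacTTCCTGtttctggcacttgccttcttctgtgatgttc
Cd34: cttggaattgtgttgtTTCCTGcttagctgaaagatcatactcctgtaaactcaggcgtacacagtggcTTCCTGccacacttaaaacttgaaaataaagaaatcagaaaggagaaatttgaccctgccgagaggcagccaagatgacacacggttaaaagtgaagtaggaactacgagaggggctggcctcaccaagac
Slamf1: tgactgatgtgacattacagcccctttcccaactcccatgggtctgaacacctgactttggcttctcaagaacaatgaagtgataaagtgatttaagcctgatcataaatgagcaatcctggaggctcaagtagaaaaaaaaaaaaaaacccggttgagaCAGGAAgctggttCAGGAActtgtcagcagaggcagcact
Cd48: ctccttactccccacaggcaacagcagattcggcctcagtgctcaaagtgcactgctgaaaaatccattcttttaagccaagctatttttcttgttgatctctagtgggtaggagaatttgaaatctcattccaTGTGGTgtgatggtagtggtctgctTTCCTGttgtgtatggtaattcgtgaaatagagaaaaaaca
Capitals mark matches on either strand to CAGGAA, a core bound by ETS family factors and read as TTCCTG on the opposite strand. They also mark matches to TGTGGT, a Runx core, found in Cd48. Of the 10 genes 8 had an entry in the RefSeq promoter table, with Ly6a and Esam without one, and 4 of those 8, the genes shown, held CAGGAA in this 200-base window, against 21.3% of all 32851 promoter entries. TGTGGT was found in 1 of 8 against 11.4% of all entries, and the GATA core AGATAA in 0 of 8 against 7.99%. The palindromic Ebf1 motif was in 0 of 8, against 0.606% of all entries. Genes with the letters CAGGAA stood on both sides: Slamf1 had a positive fold change and the other 3 a negative one. A match is a string of letters and was not tested as a binding site.

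Slamf1 and Cd48 are the SLAM family antigens by which stem cells are commonly sorted, the first carried by stem cells and the second gained by progenitors. The genes lie on the plus strand of one stretch of chromosome 1, Cd48 at chr1:171682009-171705258 and Slamf1 at chr1:171767127-171801184, 61868 bases apart with 5 annotated genes in between. Slamf1 was at 11.2 and 11.4 CPM in WT and at 12.3 and 23.5 CPM in KO replicates 1 and 2. Only KO replicate 2 was clearly high: its 463 counts gave an exact 95% Poisson interval of 21.4 to 25.8 CPM, against 10.9 to 13.9 CPM in KO replicate 1, counting error only. The log2 fold change of Slamf1, 0.66 with an SE of 0.35, was not called (edgeR adjusted p = 0.264). That fold change was 0.12 without KO replicate 2 and 1.05 without KO replicate 1.

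Cd48, the ligand of the receptor CD244, was at 152 and 96.3 CPM in WT and at 87.5 and 75.6 CPM in KO. The KO libraries were the lower ones, but WT replicate 2 lay nearer to them than to WT replicate 1. Its log2 fold change of -0.60, with an SE of 0.21, was not called either (edgeR adjusted p = 0.106). Leaving out WT replicate 1 gave -0.24 and leaving out WT replicate 2 gave -0.91. With KO replicate 1 left out it was -0.72, and with KO replicate 2 left out -0.51. An annotated gene model, Gm37010, overlaps Cd48 on the same strand.

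Procr and Esam, the other antigens of stem cells, had positive fold changes that did not pass the test. Procr encodes the endothelial protein C receptor, a strong marker of long-term stem cells that is also found on endothelium. It was at 51.9 and 50.7 CPM in WT and at 52.5 and 67.3 CPM in KO, so KO replicate 1 was just above the WT libraries and KO replicate 2 stood apart (edgeR log2 fold change 0.22, SE 0.19, adjusted p = 0.511). Esam, an adhesion molecule of endothelial tight junctions and of stem cells, was at 11.7 and 15.1 CPM in WT and at 16.4 and 18.9 CPM in KO. Its KO libraries lay above its WT libraries by less than the gap within either pair (edgeR log2 fold change 0.39, SE 0.29, adjusted p = 0.439). Procr lies at chr2:155751117-155755471 and Esam at chr9:37528078-37538319, both on the plus strand and without an overlapping gene.

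Flt3 and Cd27 mark the progenitor side of the gate, and their fold changes had opposite signs. Flt3, the receptor tyrosine kinase of multipotent and lymphoid-primed progenitors and of dendritic cell precursors, was at 418 and 456 CPM in WT and at 545 and 607 CPM in KO. Its log2 fold change of 0.40 (SE 0.14) missed the threshold (edgeR quasi-likelihood test, adjusted p = 0.104), and ranged from 0.31 to 0.47 with 1 library left out. Cd27, a TNF receptor family member carried by most multipotent progenitors and by lymphocytes, was at 266 and 237 CPM in WT and at 204 and 157 CPM in KO. Both KO libraries were lower, KO replicate 2 the most (edgeR log2 fold change -0.48, SE 0.17, adjusted p = 0.104). The log2 fold change of Cd27 ranged from -0.68 to -0.31 with 1 library left out. Flt3 lies at chr5:147330741-147400489 and Cd27 at chr6:125232622-125237010, both on the minus strand. Flt3 is overlapped by the antisense gene Gm26597, and Cd27 by Vamp1 on the opposite strand and by a microRNA gene on its own.

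Kit and Ly6a, the antigens used to sort the cells, are limited by the sort itself, which sets a lower bound on their protein. Kit was at 617 and 708 CPM in WT and at 697 and 702 CPM in KO, with the KO libraries inside the WT range (edgeR log2 fold change 0.08, SE 0.14, adjusted p = 0.766). Ly6a was at 47.7 and 36.9 CPM in WT and at 37.3 and 67.0 CPM in KO. The 2 KO libraries lay at different ends of its range, and their exact 95% Poisson intervals of 34.8 to 39.9 and 63.4 to 70.7 CPM did not meet (edgeR log2 fold change 0.30, SE 0.27, adjusted p = 0.527). The sign of Ly6a turned without KO replicate 2 (-0.19), as that of Kit did without WT replicate 1 (-0.022). Kit lies on the plus strand at chr5:75574916-75656722 and Ly6a on the minus strand at chr15:74994877-74998031, in a cluster of closely related Ly6 genes whose reads may be shared between copies.

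**Figure D2:**
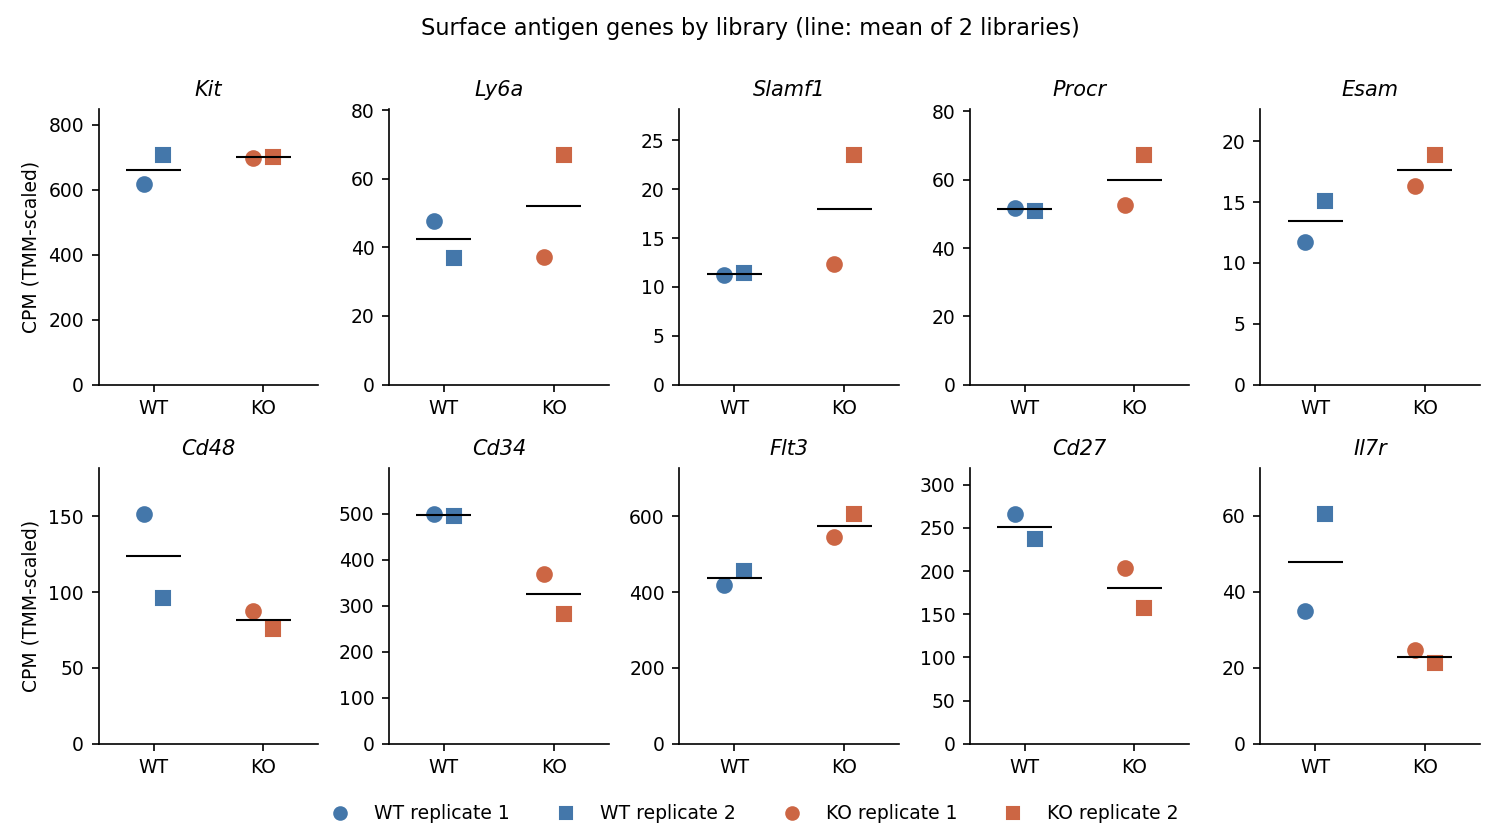
CPM of the 10 antigen genes in each library, on axes that start at 0, with circles for replicate 1, squares for replicate 2 and a line at the mean of each group. KO replicate 2 is the highest library for Ly6a (67.0 CPM), Slamf1 (23.5 CPM), Procr (67.3 CPM), Esam (18.9 CPM) and Flt3 (607 CPM), and the lowest for Cd48, Cd34, Cd27 and Il7r.

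KO replicate 2 was thus the highest or lowest library for 9 of the 10 genes, the exception being Kit. The share of all genes tested for which this holds was not computed, so nothing is read from that count. KO replicate 2 also had the smallest total count and the lowest share of the ribosomal RNA precursor Rn45s. That share was 9.37% of counts against 14.6% to 15.7% in the other libraries, and the part of that difference in the values of the 10 genes was not tested. With Rn45s removed before scaling, the calls were again Cd34 and Il7r.

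Levels of different genes were compared per kilobase of merged exon (CPM per kilobase). Cd27 was the highest in WT, at 108 ± 8.96, followed by Cd48 at 104 ± 32.9, Kit at 74.4 ± 7.21, Flt3 at 70.8 ± 4.41 and Cd34 at 68.2 ± 0.368 CPM per kilobase (SD, n = 2 each). In KO the first was Flt3, at 93.3 ± 7.04, followed by Kit at 78.5 ± 0.383, Cd27 at 77.7 ± 14.2, Cd48 at 68.6 ± 7.07 and Cd34 at 44.6 ± 8.50 CPM per kilobase. Flt3 thus stood at rank 4 in WT and rank 1 in KO.

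Below these came Ly6a, with 30.6 to 55.6 CPM per kilobase over the 4 libraries, and Procr, with means of 25.3 in WT and 29.5 in KO. Il7r had 4.53 to 13.0, Esam 4.10 to 6.59 and Slamf1, the lowest of the 10, 1.81 to 3.82 CPM per kilobase. In the order by the mean over all 4 libraries, 3 pairs of neighbours had ranges that did not meet: Kit above Cd34, Procr above Il7r and Esam above Slamf1. Ranks among the 5 highest genes depended on the length used. With the longest transcript in place of merged exons Cd34 moved from rank 5 to rank 2 and Cd48 from rank 2 to rank 5, Cd27 stayed first, and the 5 lowest genes kept their order.

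**Figure D3:**
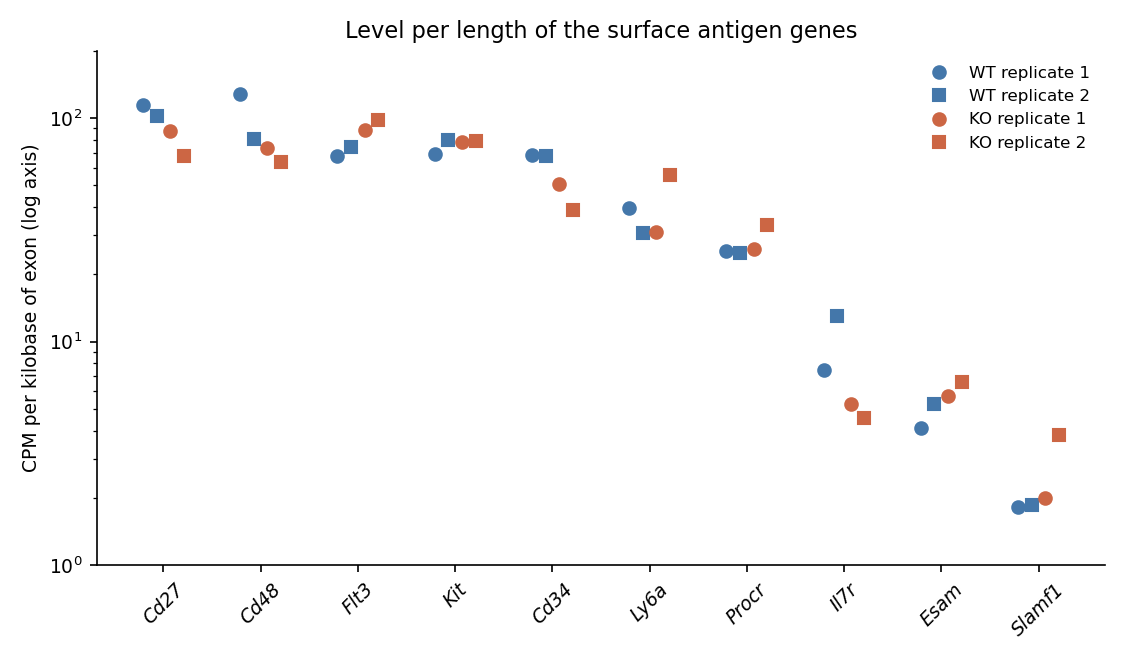
Level of each antigen gene per kilobase of merged exon in each library, on a log axis, ordered by the mean over the 4 libraries. The 5 highest genes lie between 38.6 and 127 CPM per kilobase, where neighbours other than Kit and Cd34 overlap, and Slamf1 lies lowest, between 1.81 and 3.82.

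A ratio of 2 genes within a library does not move with library size or scaling. Of 6 such ratios, chosen with the values known and given without a test because 2 against 2 libraries cannot go below p = 1/3 in an exact two-sided permutation test, 5 did not overlap between the groups. Over all 45 pairs of the 10 genes, 30 ratios (66.7%) did not overlap, so nothing is read from the count of 5. For each Cd48 count there were 0.0737 and 0.119 Slamf1 counts in the WT libraries, against 0.141 and 0.311 in the KO libraries. Flt3 per Cd34 was 0.837 and 0.921 in WT and 1.48 and 2.16 in KO, so Cd34 had more reads than Flt3 in both WT libraries and fewer in both KO libraries. Procr per Cd34 was 0.104 and 0.102 in WT and 0.142 and 0.239 in KO.

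The ratio of Il7r to Flt3 lay at 0.0836 and 0.132 in WT and at 0.0452 and 0.0348 in KO. Its mean log2 value was lower in KO by a log2 difference of -1.41, the largest of the 6 in size. Cd27 per Kit was 0.432 and 0.335 in WT and 0.293 and 0.224 in KO. Ly6a per Kit, the ratio of the gate's own antigens, was 0.0772 and 0.0521 in WT and 0.0534 and 0.0954 in KO, and its groups overlapped.

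**Figure D4:**
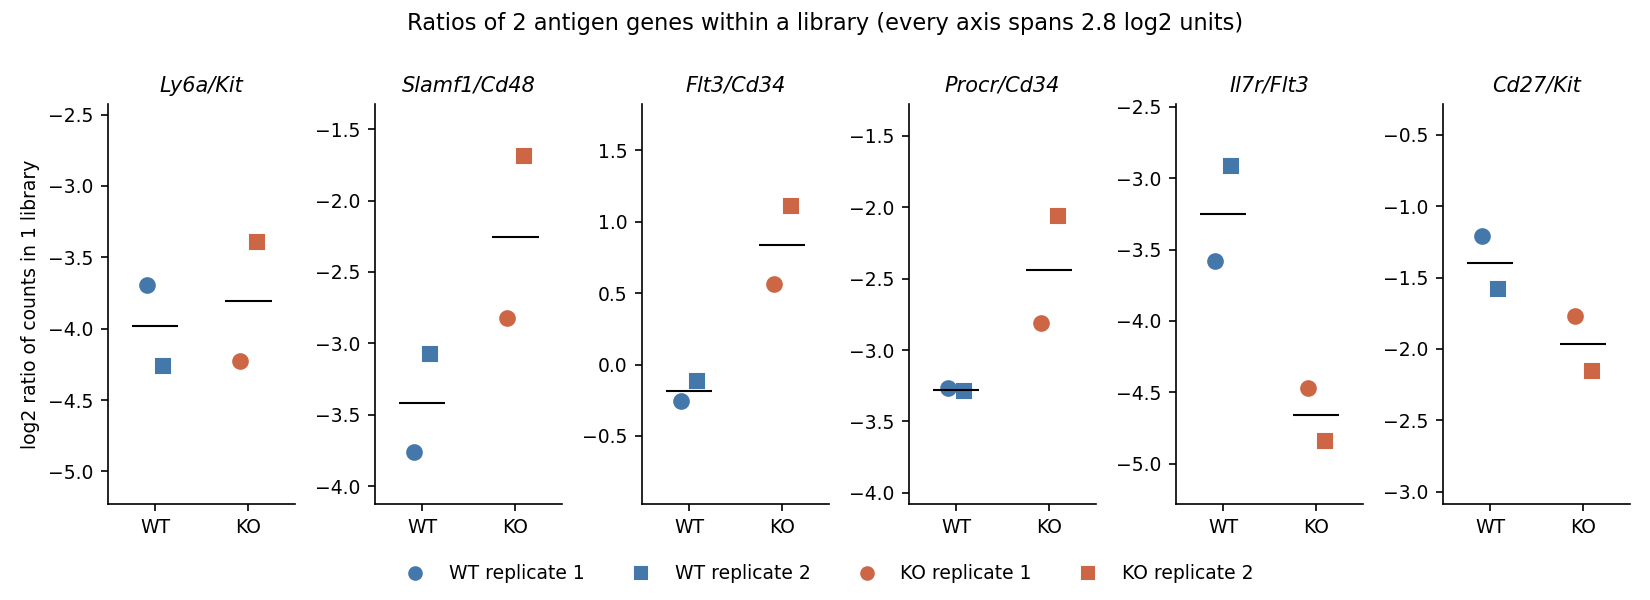
Log2 ratio of the counts of 2 antigen genes within each library, with a line at the mean of each group and the same span on every axis. The groups are apart for every ratio but Ly6a/Kit, and Il7r/Flt3 has the widest gap between group means, -1.41 log2 units.

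Other genes of the same families and pathways were counted from lists that leave out the 10 genes. Of 5 other SLAM family genes tested, 1 was higher in KO and 4 did not pass, with a median log2 fold change of 0.29, against 3.77% of all genes tested that were higher and a median of 0.02. The count was 0 without either WT library and 2 without KO replicate 1. The one was Cd244, listed under that symbol for Cd244a, which encodes the receptor of CD48. Cd244 rose from 13.3 and 14.9 CPM in WT to 32.5 and 31.2 CPM in KO (edgeR log2 fold change 1.18, SE 0.25, adjusted p = 0.0200), a call that did not hold without WT replicate 1 (adjusted p = 0.184) or WT replicate 2 (adjusted p = 0.101). It overlaps Ly9 on the opposite strand, and Ly9 itself had a log2 fold change of -0.27 (edgeR adjusted p = 0.454). Cd84 was at 63.4 and 69.0 CPM in WT and 90.1 and 118 CPM in KO (0.65, edgeR adjusted p = 0.0568, DESeq2 adjusted p = 0.0220), and Slamf7 had overlapping groups.

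Of 4 other Ly6 family genes tested, relatives of Ly6a, 0 passed in edgeR, with a median log2 fold change of 0.84. At an unadjusted p under 0.05 the count was 1, Ly6c2, which DESeq2 called (adjusted p = 0.0317). Ly6c2 was at 4.06 and 6.0 CPM in WT and 11.3 and 12.8 CPM in KO (edgeR log2 fold change 1.26, adjusted p = 0.0677). Ly6e, the most abundant of them, was at 570 and 565 CPM in WT and 536 and 365 CPM in KO, so that KO replicate 2 alone stood apart. Ly6c1 and Ly6d had log2 fold changes of 1.18 and 0.50 that did not pass.

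Of 21 other surface antigens of stem cells, 3 were higher in KO, 1 was lower and 17 did not pass, with a median log2 fold change of 0.23. Leaving out either WT library left 1 higher and 0 lower, leaving out KO replicate 1 gave 4 higher and 3 lower, and leaving out KO replicate 2 gave 2 higher and 1 lower. The higher genes were Itga2b (CD41, an integrin of stem cells with a megakaryocyte bias and of platelets), its partner Itgb3 and the platelet adhesion receptor Selp, all 3 of them also markers of megakaryocytes. Itga2b rose from 4.74 and 7.85 CPM to 26.4 and 25.7 CPM (edgeR log2 fold change 2.05, SE 0.33, adjusted p = 0.00523). Itgb3 had 279 and 226 counts in WT, a mean of 9.56 CPM, and 398 and 1003 counts in KO, at 18.0 and 51.0 CPM (1.85, edgeR adjusted p = 0.0241). Leaving out KO replicate 2 lowered its log2 fold change to 0.90 (adjusted p = 0.135), and leaving out KO replicate 1 raised it to 2.41. It was 1.92 and 1.77 with WT replicate 1 or WT replicate 2 left out, where it was not called (adjusted p = 0.0735 and 0.119). Selp rose as well (1.83, edgeR adjusted p = 0.0382), and was not called when either WT library was left out (adjusted p = 0.267 and 0.0824).

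Cd93, a C-type lectin receptor of early progenitors and endothelium, was the lower gene of that list. It fell from 800 and 770 CPM in WT to 522 and 492 CPM in KO (edgeR log2 fold change -0.63, SE 0.13, adjusted p = 0.0193), a change of the size of that of Cd34, and it was not called without WT replicate 1 (adjusted p = 0.168) nor without WT replicate 2 (adjusted p = 0.1005). Tek, the angiopoietin receptor of endothelium and stem cells, had overlapping groups.

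Of 19 other surface antigens of progenitors, 3 were higher in KO and 16 did not pass, with a median log2 fold change of 0.24. With WT replicate 1 left out 1 was higher, and with KO replicate 1 left out 2 were higher and 2 lower. Btla, an inhibitory receptor of lymphoid cells, rose from 5.28 and 9.38 CPM to 32.5 and 30.2 CPM, a level 4.28-fold higher in KO (SE of the log2 fold change 0.32, edgeR adjusted p = 0.00443). Il6ra, the interleukin 6 receptor chain, rose from 34.2 and 44.4 CPM to 75.0 and 98.2 CPM (1.14, edgeR adjusted p = 0.0111), with an adjusted p of 0.126 without WT replicate 1. Cd33 did not pass (0.62, edgeR adjusted p = 0.0830).

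Among 19 tested genes for ligands, partner chains and signal carriers of these receptors, 2 were higher in KO and 17 did not pass, with a median log2 fold change of 0.14. The higher count was 0 without either WT library and 4 without KO replicate 1. Jak3, the kinase that works with the common gamma chain in interleukin 7 signalling, rose from 76.2 and 84.9 CPM to 147 and 140 CPM (0.83, SE 0.16, edgeR adjusted p = 0.0134), and Stat3 from 179 and 150 CPM to 274 and 256 CPM (0.69, SE 0.15, edgeR adjusted p = 0.0245). Neither was called when WT replicate 1 was left out (adjusted p = 0.177 for Jak3 and 0.103 for Stat3) or when WT replicate 2 was (0.0832 and 0.233). Il2rg, the common gamma chain itself, was at 152 and 120 CPM in WT and 127 and 118 CPM in KO, with overlapping groups. Flt3l, the ligand of FLT3, was at 6.93 and 9.14 CPM in WT and 17.2 and 17.9 CPM in KO (1.13, edgeR adjusted p = 0.0543, DESeq2 adjusted p = 0.0178). Tslp had at most 48 counts in a library (2.31, edgeR adjusted p = 0.164). Kitl, the ligand of KIT, was not tested at its 7 and 14 WT counts and 3 and 0 KO counts, and Cd70, the ligand of CD27, had 0 counts in every library.

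**Figure D5:**
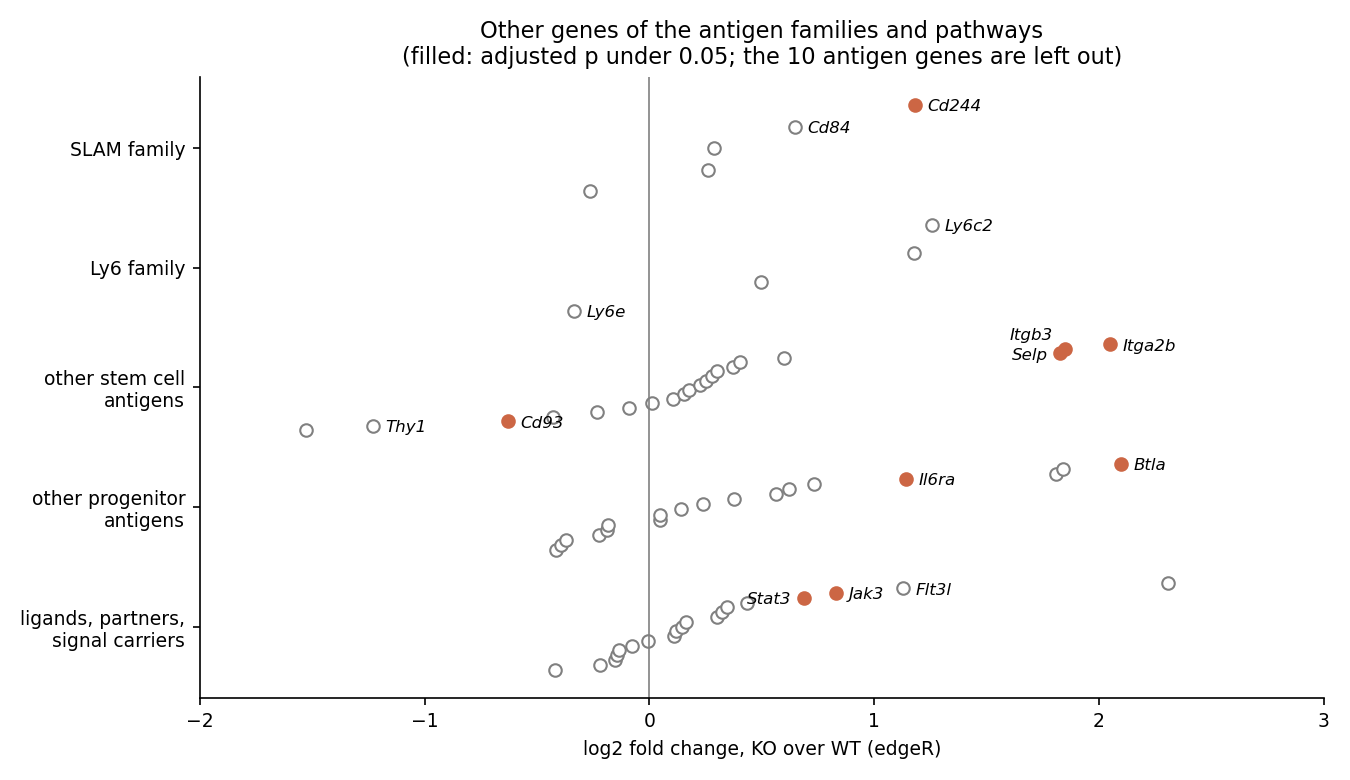
Log2 fold change of KO over WT for the tested genes of the 5 family and pathway lists other than those not reported here, filled where the adjusted p was under 0.05 (edgeR, all 4 libraries). Itga2b at 2.05 and Btla just above it lie furthest to the right among the filled points, and Cd93 at -0.63 is the filled point on the left.

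Markers of other cell types were counted beside the antigens that those cells carry, and whether the 2 moved together was not tested. Dendritic cell precursors carry FLT3, and 7 of 11 dendritic cell markers tested were higher in KO, with a median log2 fold change of 2.89 and a summed level of 159 to 167 CPM in WT and 885 to 1074 CPM in KO, and the count was 6 to 8 when each library was left out. Cd74, H2-Ab1 and H2-Aa had the highest mean levels of that list in KO, and Batf3 had 0 counts in both WT libraries and 35 and 18 in KO. Their part in the values of Flt3 was not tested. Mast cells carry KIT, and 6 of the 10 genes listed for mast cells and basophils were higher, while the groups of Kit overlapped. The list summed to 155 CPM in each WT library and to 417 and 277 CPM in KO. Most of that sum in WT was Gata2, which was not called (132 and 137 CPM in WT, 224 and 159 CPM in KO, edgeR adjusted p = 0.108). Cpa3, a mast cell protease, rose from 9.77 and 9.94 CPM to 83.4 and 45.9 CPM (edgeR adjusted p = 0.000502).

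Early B lineage cells carry the interleukin 7 receptor, and 11 of 12 B lineage markers were lower in KO, with a median log2 fold change of -2.65 and a summed level of 741 to 891 CPM in WT and 146 to 213 CPM in KO, and the count was 10 to 12 when each library was left out. Pou2af1, Cd79b and Rag2 were the most abundant of these in KO. Their part in the fall of Il7r was not tested. T and NK cells carry CD27, and of 6 such markers tested 0 were called by edgeR. At an unadjusted p under 0.05 the count was 3, with Nkg7 and Gzma lower and Klrb1c higher, and DESeq2 called Nkg7 lower (adjusted p = 0.0313). The sums were 94.3 and 99.9 CPM in WT and 82.3 and 76.7 CPM in KO, and Cd3e and Cd3g had at most 22 and 5 counts in a library.

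Endothelial cells carry CD34, EPCR and ESAM. Of 11 endothelial and stromal markers tested 1 was higher, Vwf, which is also one of the megakaryocyte markers. Of the 11, 6 had positive fold changes, and the sums were 116 and 200 CPM in WT and 173 and 146 CPM in KO. The defining markers Kdr and Cdh5 had negative log2 fold changes that were not called (-2.94 and -1.53). They had at most 96 and 115 counts in a library, both in WT replicate 2. Single stromal genes weighed on these sums. Col1a1 was at 56.1 CPM in WT replicate 2 and at most 2.62 CPM elsewhere, and Cxcl12 at 37.8 CPM in KO replicate 1 and at most 8.33 CPM elsewhere. The higher count of the list was 0 without either WT library and 2 without either KO library. The part of endothelial cells in the values of Cd34, Procr and Esam was not tested. Of the megakaryocyte markers 4 of 9 tested were higher, at 497 and 544 CPM summed in WT and 693 and 707 CPM in KO, and CD150 is also found on megakaryocyte progenitors. The count of 4 was 1 without either WT library. Their part in the values of Slamf1 was not tested.

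Antigens that the lineage gate commonly removes were present at low levels in both groups, with sums of 148 and 192 CPM in WT and 190 and 173 CPM in KO over 13 listed genes. Of 11 tested, 1 was lower and 1 higher in KO. The higher gene was Itgam (26.3 and 29.9 CPM against 52.0 and 48.9 CPM, log2 fold change 0.84, edgeR adjusted p = 0.0352). Without WT replicate 1 or WT replicate 2 the adjusted p of Itgam was 0.301 or 0.144. Other marker lists were counted too. Of 11 neutrophil markers tested 6 were higher and 1 lower, of 11 monocyte and macrophage markers 3 were higher, and of 9 erythroid markers 3 were higher. When each library was left out the higher counts ran from 1 to 8 for the neutrophil, 1 to 3 for the monocyte and 1 to 7 for the erythroid list.

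Genes with a pattern like that of the 2 called antigens were sought by the distance between centred log2 CPM values over the 4 libraries, among the 11306 genes whose mean reached 2 CPM. The nearest to Cd34 were Usp39 (distance 0.01) and Fam60a (0.03), and 296 genes lay within a distance of 0.2. Nearest to Il7r were Stard3nl (0.21) and Dap (0.23), with no gene within 0.2. With 4 libraries many genes share a pattern, and the likeness is given as a description.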

How the data were processed

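The authors deposited raw read counts per gene symbol for 4 libraries of RNA from sorted LSK cells. Per the submitters' processing notes the genome build was mm10 and the tools included HTSeq 0.8.0 and TopHat2 2.1.1, beside Picard 2.9.4 and SAMtools 1.5. For the annotation, strand setting and duplicate handling, the sources used here give nothing. Totals were 17787425 to 29863594 counts per library. The fit used TMM factors in edgeR 4.0.16 under R 4.3.3 (filterByExpr with a minimum count of 10 and total of 15, quasi-likelihood test, KO against WT, no covariate), adjusted by Benjamini-Hochberg over the 14140 genes tested with a threshold of 0.05. The SE is the log2 fold change over the square root of the F statistic. DESeq2 1.42.0 was an alternative, with other scalings and filters and each library left out. Exon lengths and positions came from GENCODE of the same build, promoters from RefSeq. The step was tested on simulated counts. The 10 genes, the lists and the ratios were chosen with earlier results of these data known. Genes named beside the 10 were those of each pathway list with the smallest p (up to 4). Others were the highest in KO of each marker list (up to 3) and markers near 0. Tek, Il2rg, Kitl, Vwf and Col1a1 were chosen after their values were seen. Ly6g was not analysed here, and some genes of the lists are counted but not reported here.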

Additional observations from a re-analysis of the deposited data

How the results depend on the processing

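The count of genes past the threshold was 958; it was 1674 with DESeq2, 2043 without a filter on low counts, 2626 with the replicate number as a block, and 255 to 2158 with 1 library left out. Of the 10 antigen genes 2 passed, against 0 with upper quartile factors, 4 without the filter (Cd48, Cd34, Il7r and Cd27), 5 with the replicate block (Flt3, Cd48, Cd34, Il7r and Cd27) and 0 to 6 with 1 library left out. Same-numbered libraries deviated together with a correlation of 0.08 across genes, so the numbers were not taken to pair the libraries. The cause of these shifts was not tested. With DESeq2 size factors, the stricter filter (50 counts in 2 libraries) and without Rn45s the 10 genes gave the same 2 calls.

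With 1 library left out, the KO minus WT difference of the log2 ratio Ly6a/Kit (0.17) ranged from -0.25 to 0.59 and turned to -0.11 when WT replicate 2, and to -0.25 when KO replicate 2, was left out. The other 5 ratios kept their sign, from 0.59 to 1.73 for Slamf1/Cd48, 0.75 to 1.30 for Flt3/Cd34, 0.46 to 1.21 for Procr/Cd34, -1.74 to -1.07 for Il7r/Flt3 and -0.76 to -0.38 for Cd27/Kit. Signs of single genes turned with 1 library left out: Kit ranged from -0.022 to 0.16 (negative without WT replicate 1), Pecam1 from -0.049 to 0.39 (likewise), Ly6a from -0.19 to 0.66 (without KO replicate 2) and Car2 from -0.17 to 0.48 (without KO replicate 1). Ccr2 ranged from -0.16 to 0.17 and was -0.11 without WT replicate 2 and negative also without KO replicate 1. Counts of 273 or more limit counting error in the 10 genes, though the Poisson intervals of Slamf1, Procr and Esam met across the groups. The number of libraries limits the precision.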
